A study of Mus musculus with 12 samples.

Results

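Themis, a gene of the T cell lineage, was followed here together with 7 other genes read as T cell or cytotoxic lymphocyte genes (Cd3d, Cd3e, Cd3g, Cd4, Cd8a, Ccl5 and Nkg7) in RNA from whole mouse livers, to ask whether the level of Themis moved with theirs. These 8 genes of the 28036 in the count table were selected on earlier results of the same libraries, by name and with no threshold. The levels of Themis are therefore given as a description, with no p-value. Where its passing of a threshold is reported below, nothing is read from it. The study compared 4 groups of C57BL/6J mice with 3 livers each, all collected at week 12. Resmetirom livers came from mice fed the high-fat diet that sets up metabolic dysfunction-associated steatohepatitis (MASH) for 8 weeks and then dosed by mouth for 4 weeks with 3 mg/kg resmetirom, an agonist of the thyroid hormone receptor beta. EE livers came from the same model dosed by mouth for 4 weeks with 100 mg/kg Eleutheroside E, a plant glycoside. MASH livers came from the model given only the 0.5% CMC-Na vehicle, and control livers from mice on normal chow given the same vehicle. The model rests on diet and carries no engineered allele. Nothing in the labels ties a replicate number to a litter, cage or day, so p-values measure the spread between these livers.

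Themis (thymocyte-expressed molecule involved in selection) is a cytosolic protein of developing and mature T cells that binds the adaptor Grb2 and the phosphatase SHP-1, encoded by Ptpn6, and tunes the signal of the T cell receptor during positive selection in the thymus. The receptor reaches the cell surface only with the CD3 chains gamma, delta and epsilon, encoded by Cd3g, Cd3d and Cd3e, and the co-receptors CD4 and CD8 divide T cells into helper and cytotoxic classes. In the liver, T cells and natural killer cells lie in the sinusoids and the portal tracts, and the cytotoxic ones are known for the chemokine Ccl5 and the granule membrane protein Nkg7. In mice CD4 is not limited to T cells, since some dendritic cells carry it too.

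The stretches upstream of Themis and of the 3 CD3 genes are shown because the CD3 genes lie in 1 cluster, 40.1 kb long from Cd3g to Cd3e on chromosome 9, and are known to be used together, while Themis stands alone on chromosome 10. All coordinates are on GRCm38, the build of the annotation used here, and not on GRCm39, the build in the submitters' processing notes. Themis spans chr10:28668360-28883818 on the plus strand. Cd3g, at chr9:44969572-44980431 on the minus strand, and Cd3d, at chr9:44981786-44987339 on the plus strand, point away from each other and start 1354 bases apart, and Cd3e lies beyond them at chr9:44998740-45009627 on the minus strand. Each line holds the 250 bases before the gene's RefSeq start site (GRCm38.p6), 5′ to 3′ on the gene's own strand, at chr10:28668110-28668359 (plus) for Themis, chr9:44981536-44981785 (plus) for Cd3d, chr9:44980432-44980681 (minus) for Cd3g and chr9:45009612-45009861 (minus) for Cd3e. Capitals mark matches, on either strand, to 1 of 5 hexamers known from regulators of lymphocytes or of thyroid hormone response.
Themis: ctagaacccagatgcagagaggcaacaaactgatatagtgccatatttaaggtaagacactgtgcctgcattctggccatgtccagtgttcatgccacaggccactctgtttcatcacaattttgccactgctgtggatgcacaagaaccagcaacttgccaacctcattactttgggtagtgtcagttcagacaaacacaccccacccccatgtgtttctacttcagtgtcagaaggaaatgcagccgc
Cd3d: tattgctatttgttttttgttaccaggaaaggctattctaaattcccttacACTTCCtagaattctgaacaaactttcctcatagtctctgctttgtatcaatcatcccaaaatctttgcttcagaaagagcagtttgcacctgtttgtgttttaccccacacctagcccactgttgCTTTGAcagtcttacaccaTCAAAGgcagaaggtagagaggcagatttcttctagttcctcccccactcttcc
Cd3g: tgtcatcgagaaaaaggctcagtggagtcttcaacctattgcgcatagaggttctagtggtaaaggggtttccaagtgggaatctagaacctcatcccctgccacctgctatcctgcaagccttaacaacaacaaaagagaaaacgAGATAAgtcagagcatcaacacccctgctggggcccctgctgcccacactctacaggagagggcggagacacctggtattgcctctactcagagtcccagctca
Cd3e: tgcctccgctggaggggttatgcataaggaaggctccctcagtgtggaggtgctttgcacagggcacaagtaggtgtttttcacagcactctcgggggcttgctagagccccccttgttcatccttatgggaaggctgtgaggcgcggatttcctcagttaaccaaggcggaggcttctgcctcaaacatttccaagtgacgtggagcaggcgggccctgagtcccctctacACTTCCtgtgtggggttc
The hexamers were TGTGGT of RUNX factors, GGAAGT of ETS factors, AGATAA of GATA factors, CTTTGA of TCF and LEF factors, and AGGTCA, the half-site of nuclear receptors. No 2 of them overlapped. Cd3d held 1 ETS and 2 TCF or LEF matches, Cd3g held 1 GATA match and Cd3e held 1 ETS match. None of the 5 was in the window of Themis, nor in that of its second RefSeq start 35 bases downstream. Of 32851 promoter windows of this length, 14.0% held the RUNX letters, 19.7% the ETS letters, 9.99% the GATA letters, 13.8% the TCF and LEF letters and 14.0% the half-site. These are matches of letters and no measure of binding. RefSeq windows for Cd8a and Nkg7 were matched as well, with no match in Cd8a and 1 RUNX match in Nkg7. Windows for Cd4 and Ccl5 were not used here.

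The libraries held 17297864 to 21793311 counts over genes, and levels are in CPM, on library sizes adjusted by the trimmed mean of M values, the scaling of edgeR that makes counts comparable between libraries. Control replicate 1 stood apart: mitochondrially encoded genes took 35.4% of its counts, against 2.40% to 4.38% in the other 11 libraries. T cell genes were near the lower limit of these whole-liver libraries, and between 1 and 46 counts were read for each CD3 gene in each liver. At such counts the counting error alone is large. Values are therefore given as raw counts as well as CPM.

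Themis was highest in MASH livers and lowest in resmetirom livers. Its counts were 5, 2 and 1 in resmetirom livers, 25, 9 and 39 in EE livers, 36, 202 and 196 in MASH livers, and 5, 25 and 10 in control livers. As levels these were 0.193, 0.150 and 0.0513 CPM with resmetirom, 1.28, 0.490 and 2.25 CPM with EE, 1.70, 8.45 and 7.65 CPM in MASH livers and 0.502, 1.06 and 0.508 CPM in controls. Every resmetirom liver was below every liver of the other 3 groups, and every MASH liver was above every control liver. Of all genes tested, 23.9% did not overlap between resmetirom and MASH and 19.7% between MASH and control. MASH replicate 1 lay far below MASH replicates 2 and 3 and below EE replicate 3, so that the EE and MASH livers overlapped, and EE livers also overlapped control livers. All 3 EE livers had less Themis than the MASH liver of the same replicate number, though the labels tie that number to no pairing.

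The group means of Themis were 0.131 ± 0.0725 CPM with resmetirom, 1.34 ± 0.882 CPM with EE, 5.93 ± 3.69 CPM in MASH livers and 0.689 ± 0.319 CPM in controls (SD, n = 3 each). In the fit over all 12 livers, the log2 fold change of Themis was -5.41 ± 0.81 (SE) for resmetirom against MASH, -2.15 ± 0.64 for EE against MASH and 3.05 ± 0.68 for MASH against control. It was -2.35 ± 0.84 for resmetirom against control, 0.91 ± 0.68 for EE against control and 3.26 ± 0.82 for EE against resmetirom. From high to low the groups ran MASH, EE, control and resmetirom, and of the neighbours in that order only control and resmetirom did not overlap. Summed over livers, 8 counts with resmetirom against 434 in MASH gave a ratio of 0.0221, with an exact 95% interval of 0.0095 to 0.044 that covers counting error only. In bulk liver RNA, fewer cells of a type and less RNA per cell cannot be told apart. On GENCODE M21 the pseudogene models 4930519F09Rik and Gm47834 lie on the strand opposite to Themis. Whether the authors counted by strand is not given in the sources used here, so reads of these models and of Themis may not have been separated. Neither model was found by its symbol in the count table.

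**Figure D1:**
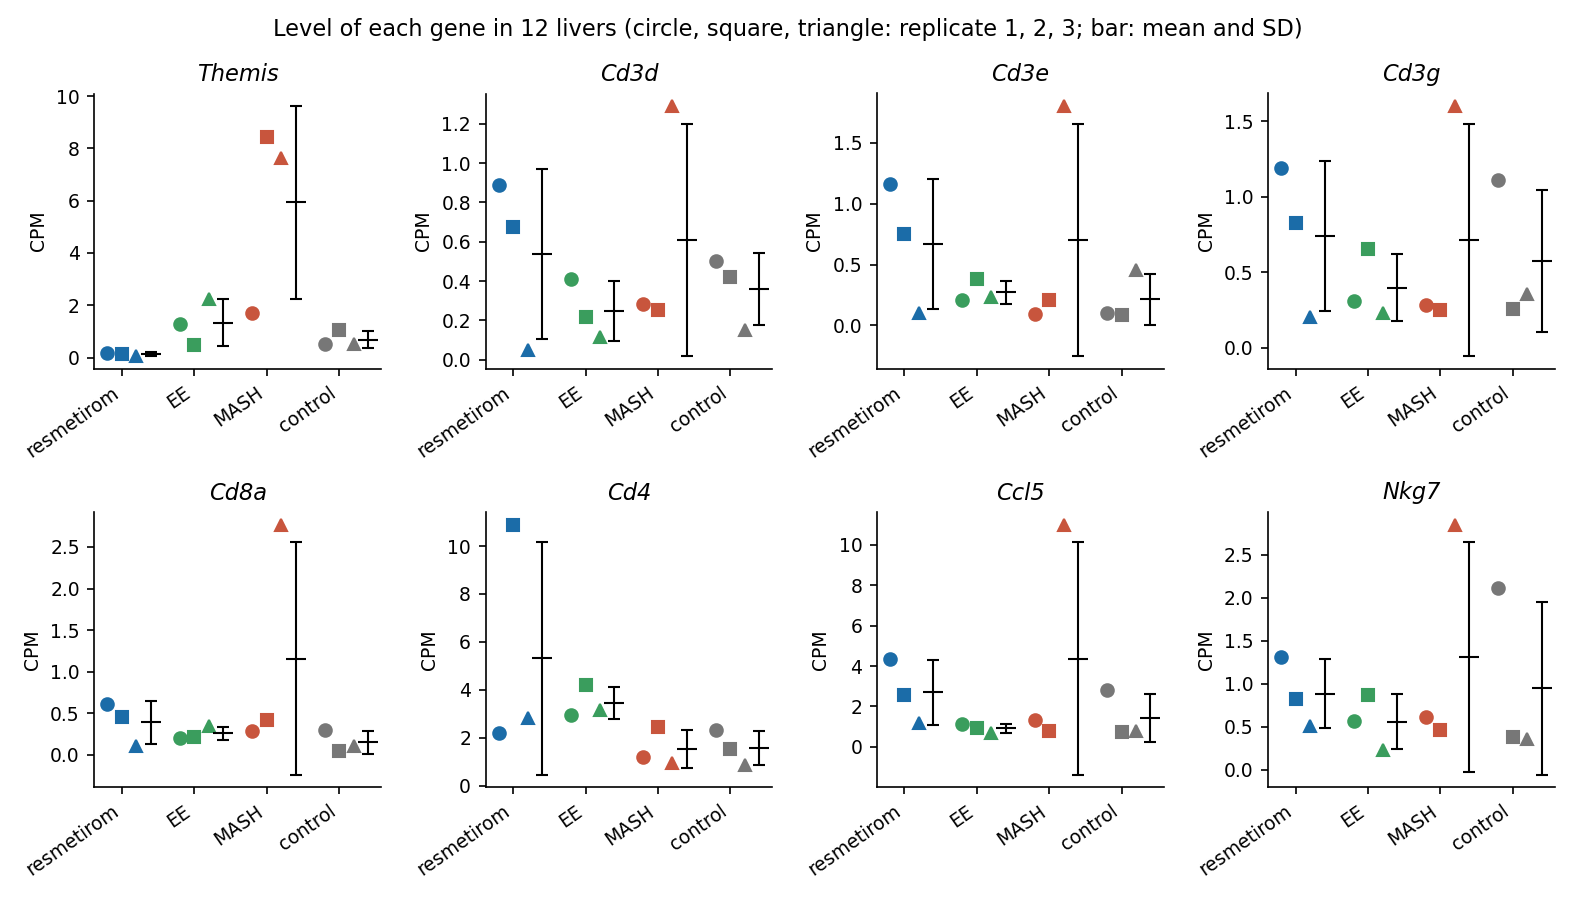
Level of each of the 8 genes in CPM (vertical axis, a separate scale for each gene) in resmetirom, EE, MASH and control livers; each point is 1 liver, its shape gives the replicate, and the bar shows the mean and SD of 3 livers. Themis is low in all 3 resmetirom livers, at 0.0513 to 0.193 CPM, while Cd3d, Cd3e, Cd3g, Cd8a, Ccl5 and Nkg7 are highest in MASH replicate 3.

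The CD3 chains, the signalling part of the T cell receptor complex, were highest in single livers of different groups. Cd3e had 30, 10 and 2 counts in resmetirom livers, 4, 7 and 4 in EE livers, 2, 5 and 46 in MASH livers and 1, 2 and 9 in control livers. Cd3g had 31, 11 and 4 counts with resmetirom, 6, 12 and 4 with EE, 6, 6 and 41 in MASH and 11, 6 and 7 in controls. Both were highest in MASH replicate 3, followed by resmetirom replicate 1. Cd3d had 23, 9 and 1 counts with resmetirom, 8, 4 and 2 with EE, 6, 6 and 33 in MASH and 5, 10 and 3 in controls. The same pair of livers stood highest for Cd3d, and for each of the 3 chains the groups overlapped in all 6 comparisons. On GENCODE M21 the model Gm48719 lies antisense to Cd3e and Gm48720 overlaps it on the same strand, so its reads may not have been separated either.

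Between resmetirom and MASH livers the mean levels of the tested CD3 chains differed by less than their standard error, while the levels of Themis did not overlap. Cd3e stood at 0.669 ± 0.531 CPM with resmetirom and 0.700 ± 0.951 CPM in MASH (SD, n = 3 each), a log2 fold change of -0.07 ± 0.98 (SE). Cd3g stood at 0.741 ± 0.500 CPM with resmetirom and 0.712 ± 0.770 CPM in MASH, a log2 fold change of 0.05 ± 0.83. With standard errors of this size, a change of several fold in either direction would not have been detectable. Without MASH replicate 3 the log2 fold change of Cd3g for resmetirom against MASH was 1.46. Cd3d was below the filter on low counts and was not tested.

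Cd8a, which encodes the alpha chain of the cytotoxic co-receptor, showed the same liver pattern as the CD3 chains. It had 16, 6 and 2 counts with resmetirom, 4, 4 and 6 with EE, 6, 10 and 71 in MASH and 3, 1 and 2 in controls. MASH replicate 3 alone held 2.77 CPM, against at most 0.616 CPM in any other liver. Cd8a was below the filter and was not tested. Its partner chain Cd8b1 had 20, 3 and 1 counts with resmetirom, 4, 0 and 6 with EE, 4, 4 and 38 in MASH and 2, 4 and 3 in controls, highest in the same liver.

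Cd4, the helper co-receptor, had its highest liver elsewhere, in resmetirom replicate 2. It had 57, 145 and 55 counts with resmetirom, 57, 77 and 55 with EE, 25, 58 and 24 in MASH and 23, 36 and 17 in controls. As levels these were 2.20, 10.9 and 2.82 CPM with resmetirom, 2.93, 4.19 and 3.17 CPM with EE, 1.18, 2.43 and 0.937 CPM in MASH livers and 2.31, 1.52 and 0.863 CPM in controls. Each EE liver was above each MASH and each control liver, while the resmetirom livers overlapped both. Such a lack of overlap was common, and held for 32.3% of all genes tested in EE against MASH and for 27.1% in EE against control. The log2 fold change of Cd4 was 1.18 ± 0.60 (SE) for EE against MASH and 1.17 ± 0.61 for EE against control. For resmetirom against MASH it was 1.78 ± 0.60, and 0.71 without resmetirom replicate 2. For resmetirom against control it was 1.77 ± 0.62, and likewise 0.71 without that liver. MASH replicate 3, the liver with most CD3 and Cd8a counts, had less Cd4 than 10 of the other 11. Summed levels of 8 Kupffer cell genes, markers of the resident macrophages of the liver, were 738, 469 and 369 CPM with resmetirom, 635, 753 and 741 CPM with EE, 356, 491 and 408 CPM in MASH livers and 179, 511 and 398 CPM in controls. Summed levels of 8 dendritic cell genes were 346, 212 and 135 CPM with resmetirom, 112, 108 and 89.1 CPM with EE, 170, 101 and 228 CPM in MASH livers and 110, 145 and 106 CPM in controls. In EE against MASH the Kupffer sum was thus higher in each EE liver, and the median log2 fold change of the 8 Kupffer genes was 0.31. The dendritic cell sums overlapped between EE and MASH, and the median log2 fold change of the 7 tested genes was -0.84. The part of other cell types in the Cd4 level was not tested.

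Ccl5, a chemokine that draws T cells and is itself made by activated T and natural killer cells, and Nkg7, a protein of cytotoxic granules, again stood highest in MASH replicate 3. Ccl5 had 4.35, 2.55 and 1.18 CPM with resmetirom, 1.13, 0.926 and 0.693 CPM with EE, 1.32, 0.795 and 11.0 CPM in MASH livers and 2.81, 0.719 and 0.812 CPM in controls. Nkg7 had 1.31, 0.824 and 0.513 CPM with resmetirom, 0.565, 0.871 and 0.231 CPM with EE, 0.615, 0.460 and 2.85 CPM in MASH livers and 2.11, 0.380 and 0.355 CPM in controls. For both, MASH replicates 1 and 2 lay within the range of the control livers, and MASH replicate 3 stood above all other livers. The log2 fold change of Ccl5 for EE against MASH was -2.25 ± 0.92 (SE), and -0.20 without MASH replicate 3. For MASH against control it was 1.68 ± 0.90, and -0.38 without that liver. Nkg7 differed by -1.23 ± 0.85 for EE against MASH and by 0.05 without that liver. The group means of these genes in MASH therefore rest on 1 liver.

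Of the 8 genes, 6 passed the filter and were tested with edgeR's quasi-likelihood test over 13988 genes, with Benjamini-Hochberg adjusted p below 0.05 as the threshold. In resmetirom against MASH, 1 of the 6, Themis, was past the threshold, beside 0.665% of all genes tested. Themis was selected on results that include this comparison, so nothing is read from that count. It was no longer past the threshold without MASH replicate 2, without MASH replicate 3 or without resmetirom replicate 2, at log2 fold changes of -5.07, -5.19 and -5.47. None of the 6 was past it in MASH against control, where 0.0143% of all genes were, in EE against MASH (0.00715%), in EE against control (0.100%), in resmetirom against control (3.16%) or in EE against resmetirom (0.307%). In EE against MASH, the fit with the replicate number as a block called 5 genes in place of 1, and none of these 6. The background is so low in EE against MASH and in MASH against control that a count of 0 there says little about these genes.

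Set against the CD3 chains of the same liver, Themis was low in resmetirom livers and high in MASH livers. Resmetirom livers held 84, 30 and 7 summed counts of Cd3d, Cd3e and Cd3g, EE livers 18, 23 and 10, MASH livers 14, 17 and 120 and control livers 17, 18 and 19. Themis counts per CD3 count were 0.0595, 0.0667 and 0.143 with resmetirom, 1.39, 0.391 and 3.90 with EE, 2.57, 11.9 and 1.63 in MASH and 0.294, 1.39 and 0.526 in controls. Every resmetirom liver lay below every other liver, and every MASH liver above every control liver, as for the level of Themis itself. The exact 95% interval, which covers counting error only, was 0.0188 to 0.144 in resmetirom replicate 1 and 1.29 to 2.07 in MASH replicate 3, the liver with most CD3 counts of its group in each case. Resmetirom replicate 3, with 1 Themis count and 7 CD3 counts, had an interval of 0.00317 to 1.11, which reaches the values of control and EE livers. MASH replicate 2 had 202 Themis counts beside 17 CD3 counts, an interval of 7.24 to 20.8. Since the ratio holds Themis in its numerator, its order across groups is no separate evidence.

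**Figure D2:**
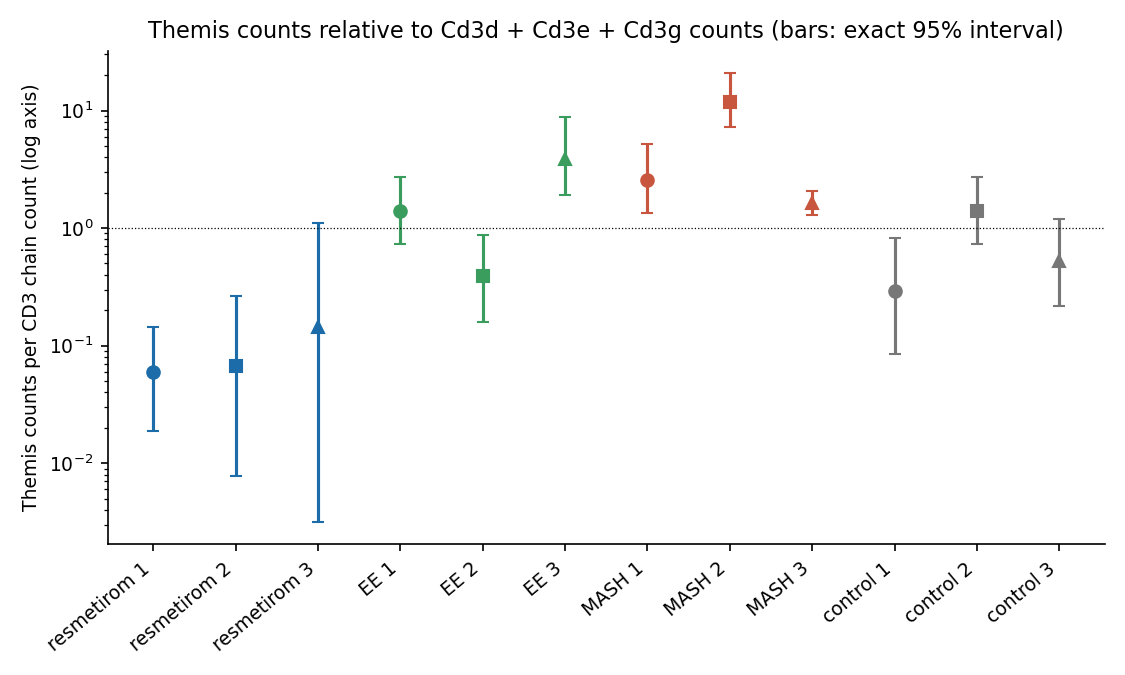
Themis counts per summed Cd3d, Cd3e and Cd3g count (vertical log axis) in each of the 12 livers; bars are exact 95% intervals for counting error and the dotted line marks equal counts. The 3 resmetirom livers lie at 0.0595 to 0.143 and the MASH livers at 1.63 to 11.9.

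Single livers show how the levels of Themis and the CD3 chains stood to each other. MASH replicates 2 and 3 held nearly the same Themis level, 8.45 and 7.65 CPM, while their summed CD3 levels were 0.711 and 4.69 CPM. Resmetirom replicate 1 had a summed CD3 level of 3.24 CPM, second only to MASH replicate 3, and 0.193 CPM of Themis. EE replicate 3 held 0.577 CPM of the CD3 chains and 2.25 CPM of Themis. Livers with most CD3 were thus found at both ends of the Themis range.

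**Figure D3:**
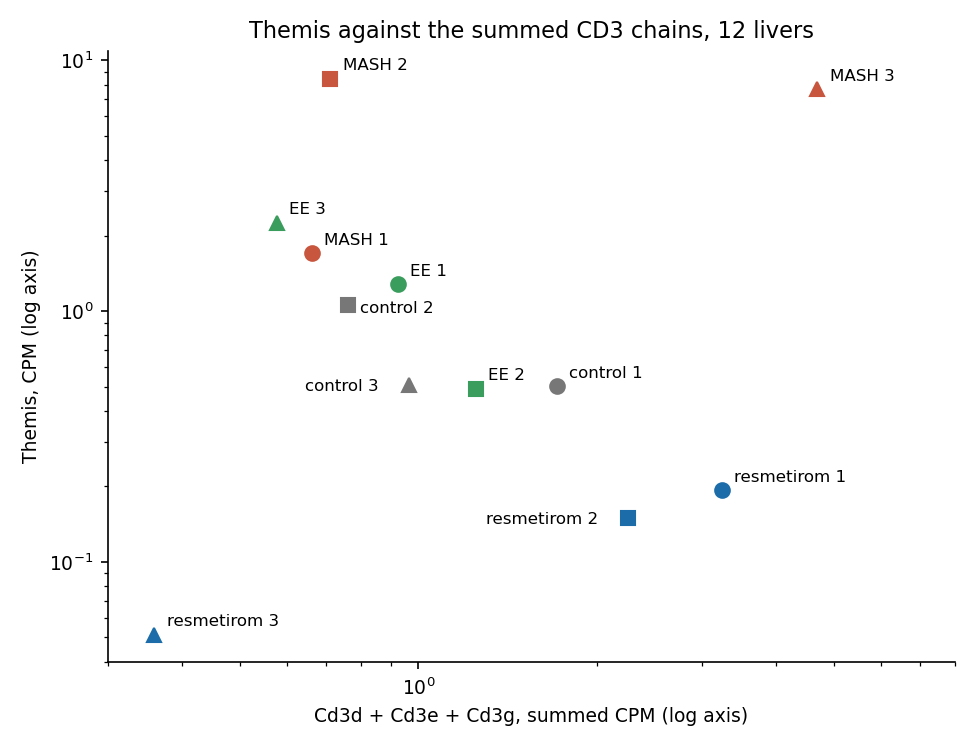
Themis level (vertical log axis, CPM) against the summed level of Cd3d, Cd3e and Cd3g (horizontal log axis, CPM) in 12 livers, each point labelled with its group and replicate. MASH replicates 2 and 3 share a Themis level near the top while their CD3 levels are 0.711 and 4.69 CPM, and resmetirom replicates 1 and 2 combine high CD3 with low Themis.

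Across the 12 livers the Pearson correlation of log2 CPM between Themis and the summed CD3 chains was 0.06 (Spearman's rho -0.17). Leaving out each liver in turn gave 0.22 at most and -0.36 at least, and leaving out MASH replicates 2 and 3, the 2 livers farthest from the Themis median, gave -0.33. With group means subtracted it was 0.24. The correlation of Themis was 0.20 with Cd3d, 0.07 with Cd3e, -0.07 with Cd3g, 0.47 with Cd8a, 0.05 with Ccl5, 0.02 with Nkg7 and -0.42 with Cd4. That with Cd8a was -0.09 without the same 2 livers, and that with Cd4 was 0.07 with group means subtracted. These are descriptions over 12 libraries that share depth and scaling across genes, at low counts, and carry no p-value.

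Of the other genes, all but Cd4 went together in the same livers. The 15 pairs among Cd3d, Cd3e, Cd3g, Cd8a, Ccl5 and Nkg7 had correlations of 0.52 to 0.91 with a median of 0.75, against -0.07 to 0.47 with a median of 0.06 for Themis with these 6 genes. Cd4 had -0.11 to 0.04 with the same 6 genes. By Spearman's rho the 15 pairs ran from 0.33 to 0.90, and Themis with the 6 genes from -0.30 to 0.20. With the summed CD3 chains, the correlation was 0.88 for Ccl5, 0.82 for Nkg7 and 0.76 for Cd8a, but -0.00 for Cd4. Without the 2 livers farthest from the median of the CD3 sum these were 0.66 for Ccl5, 0.66 for Nkg7, 0.39 for Cd8a and 0.47 for Cd4. Among the 13988 genes tested, Ccl5 ranked 2 and Nkg7 ranked 5 for likeness to the CD3 sum, and Trac, the constant region of the T cell receptor alpha chain, ranked 4 with 0.84. Themis ranked 5995 there. The ranks of Cd3g and Cd3e, at 1 and 3, follow from their being part of the sum. The other genes among the 10 most like the CD3 sum were Orm2 (0.82), an acute phase protein of hepatocytes, Rinl (0.81), Neurl1b (0.81), Fmnl1 (0.79), a formin of blood cells, and Lrrc75a (0.79).

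**Figure D4:**
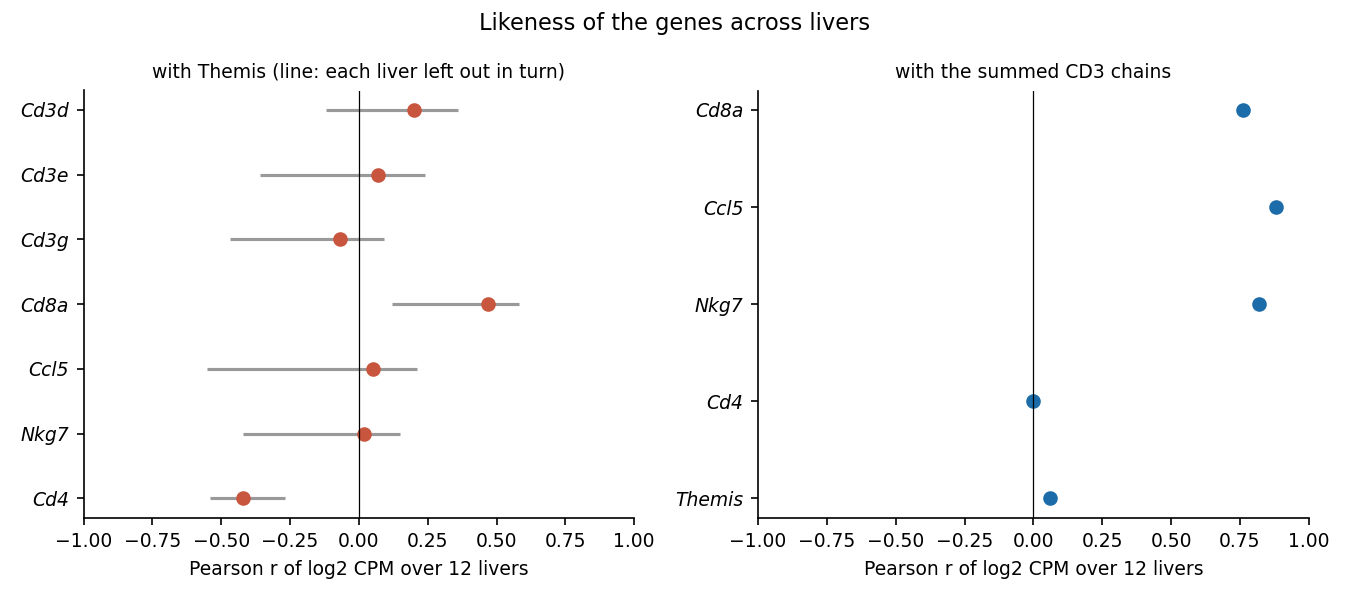
Pearson correlation of log2 CPM over 12 livers (horizontal axes) of 7 genes with Themis (left, with the range when each liver is left out in turn) and of 5 genes with the summed CD3 chains (right). Ccl5, Nkg7 and Cd8a lie at 0.76 to 0.88 with the CD3 chains and at 0.02 to 0.47 with Themis.

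The genes whose course over the livers was most like that of Themis, by the correlation of log2 CPM, were not lymphocyte genes of the lists used here. They were Clstn3 (0.92), Olig1 (0.92), Cfd (0.90), Lamb3 (0.90), Gm21885 (0.89), Skp1a (0.88), Rbm34 (0.88), Tsr2 (0.88), ENSMUSG00000128943 (0.88) and Plin4 (0.86). Clstn3, which encodes a calsyntenin, averaged 5.17 ± 1.31 CPM with resmetirom, 24.8 ± 14.8 CPM with EE, 39.8 ± 9.21 CPM in MASH livers and 15.6 ± 6.35 CPM in controls (SD, n = 3 each). Plin4, a coat protein of lipid droplets, averaged 1.22 ± 0.515 CPM with resmetirom, 4.71 ± 2.96 CPM with EE, 12.9 ± 6.54 CPM in MASH livers and 5.59 ± 2.71 CPM in controls. Cfd, the complement protease adipsin of fat cells, had 0 counts in each resmetirom liver, which allows up to 3 counts in a library, and averaged 13.0 ± 10.1 CPM with EE, 25.8 ± 13.1 CPM in MASH livers and 2.37 ± 0.511 CPM in controls. All 10 had their lowest group mean with resmetirom and their highest in MASH. Since these genes were picked by likeness to Themis, their sharing its lowest and highest group is no separate evidence. Unlike Themis, Plin4 and Skp1a had a higher mean in controls than with EE (139 and 132 CPM for Skp1a). The size of the swing differed widely among the 10.

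**Figure D5:**
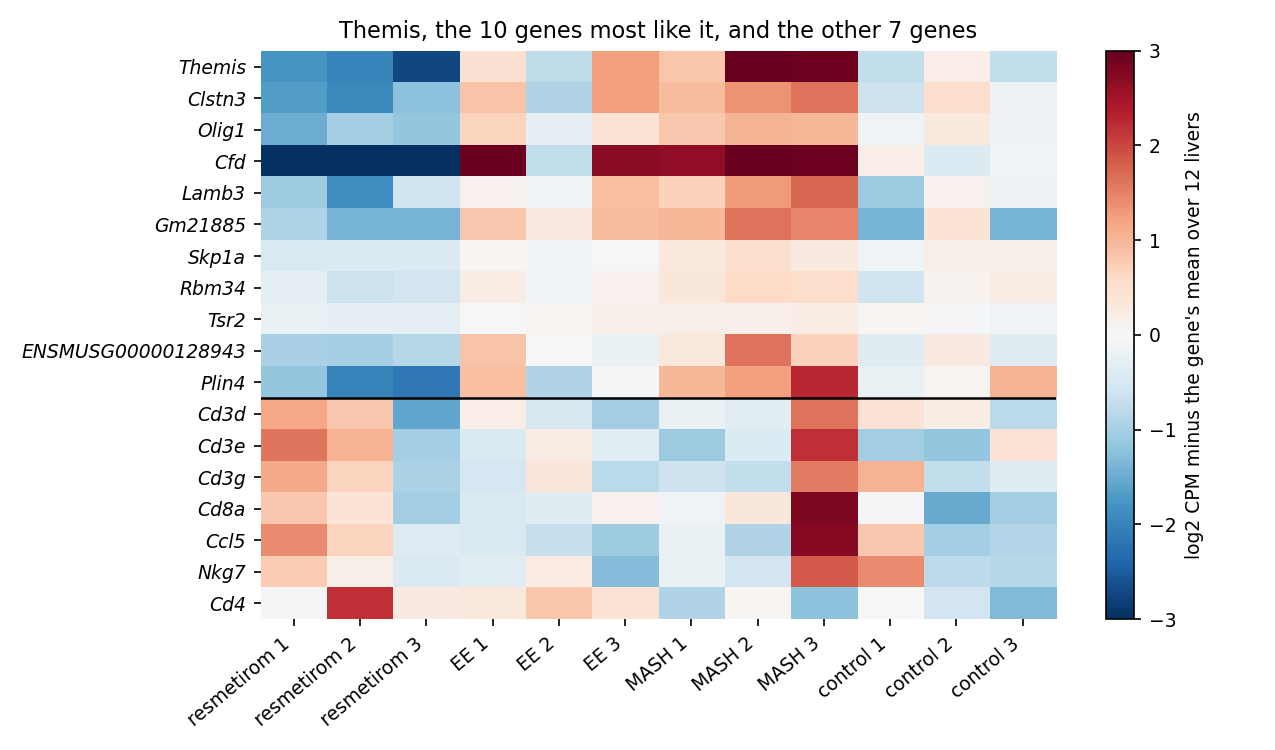
Log2 CPM minus each gene's mean over 12 livers (colour, which saturates at 3 in both directions) for Themis, the 10 genes most like it (above the black line) and the other 7 genes (below it), with livers in columns. MASH replicate 3 and resmetirom replicate 1 are high in most rows below the line, while all 3 resmetirom livers are low in every row above it.

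The wider lymphocyte lists, which leave out the B cell markers given below, gave no call. They held 93 symbols, of which 90 were in the table and 41 passed the filter, and edgeR's quasi-likelihood test called 0 of the 41 in each of the 6 comparisons. In resmetirom against MASH, 24 of the 41 had a positive and 17 a negative log2 fold change, with a median of 0.20 beside 0.06 over all genes tested, and 2 had an unadjusted p below 0.05, as did 15.0% of all genes. The sublists differed there. Of 19 further receptor and co-receptor genes 5 were tested, 4 positive and 1 negative, with a median of 0.91. Of 23 cytotoxic and natural killer cell genes 4 were tested, all positive, with a median of 0.84. The remaining sublists had medians of -0.98 to 0.21. In EE against MASH, 9 of the 41 were positive and 32 negative, with a median of -0.30 beside -0.02 over all genes, and 1 had an unadjusted p below 0.05, as did 7.49% of all genes. In MASH against control, 29 were positive and 12 negative, with a median of 0.20 beside -0.02, and 2 had an unadjusted p below 0.05, as did 9.23% of all genes. Resmetirom against control gave 30 positive and 11 negative, with a median of 0.49 beside 0.02, and 6 with an unadjusted p below 0.05 beside 22.9% of all genes. EE against control gave 20 and 21, with a median of -0.01 beside -0.06, and 2 such genes beside 16.1%. EE against resmetirom gave 11 and 30, with a median of -0.56 beside -0.08, and 3 such genes beside 11.8%. In no comparison was the share of the 41 genes with an unadjusted p below 0.05 above that of all genes. Of all genes tested, 54.2%, 47.6%, 48.4%, 51.3%, 45.6% and 42.4% had a positive log2 fold change, in the order of comparisons just given. Comparisons against one group share its livers and are not independent of each other. Called by DESeq2 instead were Tox in resmetirom against MASH, and Tox and Ptpn6 in resmetirom against control. Without resmetirom replicate 3, edgeR called Tox as well in resmetirom against control.

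Of the partners of Themis (Ptpn6, Grb2 and Ptpn11) and its relative Themis2, none had its highest group mean in MASH livers. Ptpn6, the phosphatase SHP-1, had 30.4, 21.2 and 23.9 CPM with resmetirom, 22.1, 18.5 and 23.5 CPM with EE, 18.5, 20.1 and 24.0 CPM in MASH livers and 13.7, 16.4 and 15.1 CPM in controls. Each liver on the high-fat diet, treated or not, was above each control liver. A lack of overlap with control held for 20.8% of all genes tested in resmetirom livers, 27.1% in EE livers and 19.7% in MASH livers, each group taken alone. The log2 fold change of Ptpn6 for resmetirom against control was 0.74 ± 0.19 (SE), with an adjusted p of 0.0585 by edgeR, 0.00742 by DESeq2 and 0.0313 without control replicate 1 and resmetirom replicate 2. The related gene Themis2, known from B cells and macrophages, averaged 6.06 ± 3.76 CPM with resmetirom, 3.23 ± 0.985 CPM with EE, 3.81 ± 1.47 CPM in MASH livers and 2.93 ± 1.29 CPM in controls (SD, n = 3 each). The adaptor Grb2 averaged 42.3 ± 2.36 CPM with resmetirom, 45.0 ± 2.85 CPM with EE, 38.3 ± 0.440 CPM in MASH livers and 39.3 ± 4.21 CPM in controls. The phosphatase SHP-2, encoded by Ptpn11, averaged 53.1 ± 13.7 CPM with resmetirom, 60.0 ± 2.76 CPM with EE, 58.8 ± 1.52 CPM in MASH livers and 51.2 ± 23.0 CPM in controls. For Themis2, Grb2 and Ptpn11 the resmetirom and control livers overlapped.

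Of the other T cell genes, Tox, a transcription factor of T cell development, averaged 1.84 ± 0.853 CPM with resmetirom and 4.24 ± 1.05 CPM in MASH (SD, n = 3 each), a log2 fold change of -1.20 ± 0.36 (SE) with an adjusted p of 0.153 by edgeR and 0.0408 by DESeq2. Lck, the kinase bound to the co-receptors, had 2.04, 0.674 and 0.718 CPM with resmetirom, 0.565, 0.272 and 0.519 CPM with EE, 0.473, 0.209 and 1.84 CPM in MASH livers and 1.11, 0.676 and 0.660 CPM in controls. Its 2 highest livers were resmetirom replicate 1 and MASH replicate 3, the livers with most CD3. Zap70, the kinase that binds the phosphorylated CD3 chains, had 4.43, 2.77 and 3.64 CPM with resmetirom, 5.75, 6.48 and 5.43 CPM with EE, 3.69, 5.23 and 10.2 CPM in MASH livers and 8.34, 4.57 and 4.01 CPM in controls. It was highest in MASH replicate 3 but had its lowest group mean with resmetirom. Of the 11 tested genes of receptor signalling, 5 had a positive and 6 a negative log2 fold change in resmetirom against MASH. Trac had 31, 13 and 4 counts with resmetirom, 8, 10 and 5 with EE, 3, 1 and 27 in MASH and 11, 5 and 8 in controls. Tcf7, a transcription factor of naive T cells, averaged 4.52 ± 1.09 CPM with resmetirom and 2.25 ± 0.741 CPM in controls (SD, n = 3 each), a log2 fold change of 1.01 ± 0.37 (SE) with an adjusted p of 0.139 by edgeR.

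Genes of developing T cells in the thymus were looked at because Themis is named for them. Dntt, the terminal transferase that lengthens receptor joints, averaged 1.10 ± 0.694 CPM with resmetirom, 1.44 ± 0.542 CPM with EE, 2.65 ± 0.244 CPM in MASH livers and 0.755 ± 0.615 CPM in controls (SD, n = 3 each). Each MASH liver was above each liver of the other 3 groups. Of all genes tested, 19.7% did not overlap between MASH and control, 32.3% between EE and MASH and 23.9% between resmetirom and MASH. The log2 fold change of Dntt was 1.72 ± 0.65 (SE) for MASH against control, with an adjusted p of 0.519 by edgeR. Rag1, a recombinase of receptor gene assembly, had 1 count in EE replicate 1, 1 in control replicate 2 and none in the other 10 livers. Ptcra, the pre-T cell receptor alpha chain, had at most 2 counts in any liver. In MASH replicate 2, with 202 Themis counts, Rag1 had 0 counts and Trac 1 count. In MASH replicate 3, with 196 Themis counts, Rag1 also had 0 counts but Trac had 27.

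Marker genes of other blood cells were read in the same livers. Ncr1, a receptor of natural killer cells, had 5, 0 and 0 counts with resmetirom, 0, 1 and 0 with EE, 0, 3 and 3 in MASH and 1, 0 and 0 in controls. Klrb1c, the other natural killer cell marker listed, had 10, 0 and 3 counts with resmetirom and 6, 1 and 1 with EE. It had 4, 3 and 7 counts in MASH and 2, 8 and 9 in controls, where its group mean was highest. Summed over 19 further T cell receptor and co-receptor genes, resmetirom livers held 12.0, 8.09 and 5.02 CPM, EE livers 3.29, 3.76 and 3.17 CPM, MASH livers 3.41, 2.55 and 10.9 CPM and control livers 14.3, 3.21 and 3.20 CPM. Each resmetirom liver was thus above each EE liver in this sum, while Themis was lower with resmetirom. Of all genes tested, each taken singly, 17.8% did not overlap between EE and resmetirom. Summed over 8 pan-leukocyte genes, resmetirom livers held 268, 113 and 124 CPM, EE livers 141, 121 and 152 CPM, MASH livers 132, 125 and 184 CPM and control livers 104, 141 and 129 CPM. The sum of 8 B cell genes was 49.1 to 158 CPM with resmetirom, 8.37 to 16.4 CPM with EE, 9.07 to 13.7 CPM in MASH livers, and 57.8, 11.8 and 10.8 CPM in controls. Of 7 tested B cell genes, edgeR called 1 higher in resmetirom against MASH, beside 0.665% of all genes tested called. It called 1 higher in resmetirom against control (3.16% of all genes called) and 1 lower in EE against resmetirom (0.307%). Control replicate 1 also stood apart in the sums of 7 erythroid genes (3750 CPM, against 482 and 565 CPM in the other controls), 7 neutrophil genes (19.1 CPM, against 0.803 and 0.964 CPM) and 6 platelet genes (19.0 CPM, against 1.48 and 2.49 CPM). Resmetirom replicate 1, the resmetirom liver with most CD3, also had the highest sum of 6 cell cycle genes, 53.2 CPM against 9.51 and 7.33 CPM in the other 2 resmetirom livers. This sum was 3.85 to 6.15 CPM with EE, 7.99 to 11.6 CPM in MASH livers and 3.62 to 6.05 CPM in controls. In resmetirom against control edgeR called 1 of the 6 higher, beside 3.16% of all genes tested called. No gene of any of these lists was at 0 in all 12 livers. The part of these cells in the level of Themis was not tested.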

How the data were processed

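Liver RNA from 12 samples was sequenced as Illumina Stranded mRNA libraries, per the labels' protocols. The authors deposited 1 table of expected counts, which need not be whole, for 28036 Ensembl genes. The submitters' processing notes name fastp and GRCm39, while no source used here gives the aligner, counter, annotation or strand setting. Estimated counts of a gene that shares sequence or an overlapping model depend on those steps.

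Expected counts were rounded to the nearest whole number, and GENCODE M21 gave symbols for 22603 identifiers. Genes with low counts were removed by filterByExpr, libraries were scaled by the trimmed mean of M values (factors 0.508 to 1.41), and edgeR 4.0.16 in R 4.3.3 fitted 1 model over 4 groups with 8 residual degrees of freedom, testing 13988 genes by its quasi-likelihood test. Benjamini-Hochberg adjusted p below 0.05 was the threshold, and the SE is the size of the log2 fold change divided by the square root of F. Likeness between genes is the correlation of log2 CPM with a prior count of 2. Exact 95% intervals cover counting error only, since reads without molecular identifiers are not independent molecules. The procedure was tested on simulated data. Alternatives were other scalings, other filters, DESeq2 1.42.0, limma voom 3.58.1, fits of the 2 compared groups alone, the replicate number as a block and fits without single livers.

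The genes and lists were chosen with earlier results of these data known. Named were the 8 genes, the 10 genes most like Themis and the 10 most like the CD3 sum. Of the listed genes, up to 4 with the smallest p in their list could be named, and only some of these are. No tested gene is named from the list of cytotoxic and natural killer cell genes or from that of Ccl5 receptors and lymphocyte homing. Cd8b1, Rag1, Ptcra, Ncr1 and Klrb1c were below the filter and were named for their role after their values were seen. Deviations of same-numbered livers from their group means correlated at 0.19, 0.16 and 0.15 for replicates 1, 2 and 3 in EE against MASH. In EE against resmetirom these were 0.02, 0.07 and 0.11, and every other comparison had a negative value among them. Livers of different number were not compared in this way, so the values cannot show that a number marks a pair. The replicate number was therefore used as a block only in an alternative fit.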

Additional observations from a re-analysis of the deposited data

How the results depend on the processing

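Of the fold changes of the 6 tested genes under all settings, 692 counted as unchanged, 24 moved and 5 no longer passed. A value counted as unchanged if it shifted by less than the SD of log2 CPM between livers within the 2 groups. That SD is not the SE of the fold change. The cause was not tested. Cd4 was past the threshold by DESeq2 in resmetirom against control (1 gene of the 8), where its log2 fold change of 1.77 was 0.71 in the edgeR fit without resmetirom replicate 2. Themis in resmetirom against MASH was the 1 gene of the 8 past the threshold, and 0 were by limma voom and by a fit of only those 2 groups. Leaving out 1 liver gave 0 to 1, with the call lost without MASH replicate 2 (log2 fold change -5.07), MASH replicate 3 (-5.19) or resmetirom replicate 2 (-5.47). Themis also passed in MASH against control (1 gene) and in EE against resmetirom (1 gene) with no filter and by DESeq2; since Themis was selected on results of these livers, these passes are no added evidence. Of the listed lymphocyte genes DESeq2 called 1 in resmetirom against MASH and 2 in resmetirom against control, the fit without control 1 and resmetirom 2 called 1, Ptpn6, and leaving out 1 liver gave 0 to 1.

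Over all genes, the counts past the threshold were 2 in MASH against control, 1 in EE against MASH, 93 in resmetirom against MASH, 14 in EE against control, 442 in resmetirom against control and 43 in EE against resmetirom. In the same order of comparisons, no filter gave 34, 8, 243 and 117, and 176 in EE against resmetirom. DESeq2 gave 87, 28, 657, 589, 1545 and 410. Limma voom gave 1, 0 and, in EE against control, 9. Fits of only the compared groups gave 0, 746, 0, 0, 5 and 3. Without control 1 and resmetirom 2 the counts were 9, 67, 467, 589, 1059 and 417. Leaving out 1 liver gave 0 to 6, 0 to 1, 1 to 431, 0 to 69, 127 to 684 and 7 to 138.

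With the replicate block, 5 genes passed in EE against MASH and 19 in EE against resmetirom, and it changed no call of the 8 genes: Themis in resmetirom against MASH was -5.19 on the log2 scale. The correlation of Themis with the summed CD3 chains stayed between -0.36 and 0.22 as single livers were left out.

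Depth and the spread between livers both limit these genes. The CD3 chains had 1 to 46 counts in a liver, and Themis 1 to 5 with resmetirom. Each group had 3 livers, and control replicate 1 carries 35.4% mitochondrial counts.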
